A study of Mus musculus with 8 samples.

Results

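The acute-phase genes described here are Saa1, Saa2, Saa3, Orm1, Orm2, Hp, Lcn2, Crp, Apcs and Itih4, taken by name from the deposited table of raw counts. They are 10 of 56748 genes in the table, and 10 of 10 were among the 14279 genes expressed highly enough to be tested. Saa1, Saa2 and Saa3 lie on chromosome 7, Orm1 and Orm2 on chromosome 4, Crp and Apcs on chromosome 1, Lcn2 on chromosome 2, Hp on chromosome 8 and Itih4 on chromosome 14. RNA was sequenced from mouse primary hepatocytes cultured for 24 h on collagen-coated polyacrylamide hydrogels of 2 stiffnesses, 1 kPa (soft) and 20 kPa (stiff), with 2 libraries in each of 4 groups. All mice carried floxed alleles of Yap and Taz (Yap fl/fl; Taz fl/fl) and all received a virus at 7 to 8 weeks of age. AAV8-TBG-Cre gave the Yap/Taz HepKO group, called knockout here, and AAV8-TBG-Null gave the control group, called wild type (WT) here although it carried the same floxed alleles. The study's methods also describe a tdTomato reporter allele in these mice that Cre switched on. Loss of Yap and Taz therefore cannot be told apart from the expression of Cre and the reporter in this design. TBG is a hepatocyte promoter, so Cre acted in hepatocytes and not in other liver cells that may have come along with them. Hepatocytes were isolated 10 days after the virus. The series gives the strain as C57BL/6J and the mice as female, while the growth protocol and the study's methods say male, so the sex is not settled by these sources. Nothing says whether the 2 libraries of a group came from separate mice or cultures, and the p-values below then measure only the spread between these libraries, which may be technical.

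Acute-phase proteins are plasma proteins, made mainly by hepatocytes, whose blood level changes in infection or injury. IL-6 acting through its receptor and STAT3, and IL-1 acting through NF-kappaB, are the best known inducers, and C/EBP factors and glucocorticoids act with them. Serum amyloid A proteins ride on high-density lipoprotein, orosomucoids carry small molecules, haptoglobin binds free haemoglobin, lipocalin 2 sequesters bacterial iron carriers, Crp and Apcs are pentraxins that recognise microbes and debris, and Itih4 belongs to the inter-alpha-trypsin inhibitor heavy chains. YAP and TAZ are transcriptional co-activators that enter the nucleus on stiff substrates, so the comparisons ask whether stiffness changes these genes and whether the change needs YAP and TAZ.

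Library totals ran from 18324083 to 26442310 counts. Levels are given as normalized CPM, counts scaled to the library's size and its TMM factor, and 3 counts, the limit that a count of 0 allows, corresponded to 0.113 to 0.164 CPM. A gene was called when the edgeR quasi-likelihood test gave a Benjamini-Hochberg adjusted p under 0.05 over all tested genes and the log2 fold change exceeded 0.5 in size. As a check of the labels, Yap1 lay between 95.5 and 140 CPM in the wild-type libraries and between 28.4 and 31.8 CPM in the knockout libraries. Wwtr1, which encodes TAZ, lay between 41.5 and 65.2 CPM and between 13.7 and 16.6 CPM. Both were lower in every knockout library. The YAP/TAZ targets Ccn1 and Ccn2 rose on the stiff hydrogel in wild-type cells by 1.72 ± 0.046 and 3.32 ± 0.060 (log2 ± SE). In knockout cells their log2 fold changes were 0.02 and -0.05. Albumin, the defining hepatocyte transcript, was at 54678 CPM or more in each group mean. Summed Kupffer cell and macrophage markers came to 135 CPM at most, and neutrophil markers to 0.742 CPM at most. Cholangiocyte markers, mostly Spp1, came to 602 CPM at most.

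The genes of the group fell into 3 patterns. Lcn2, Saa3, Orm2 and Apcs fell on the stiff hydrogel in wild-type cells, and none of them was called for stiffness in knockout cells. Hp was lower in the knockout on both hydrogels, and Orm1 and Crp differed in the same direction by less than the fold threshold. Saa1, Saa2 and Itih4 moved least, with the highest group mean 1.10, 1.08 and 1.21 times the lowest. Together the 10 genes took 0.626% and 0.635% of all counts on soft in wild type and 0.570% and 0.564% on stiff. In the knockout the shares were 0.481% and 0.477% on soft and 0.480% and 0.481% on stiff. Hp alone supplied 35.8% to 47.9% of those counts.

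**Figure D1:**
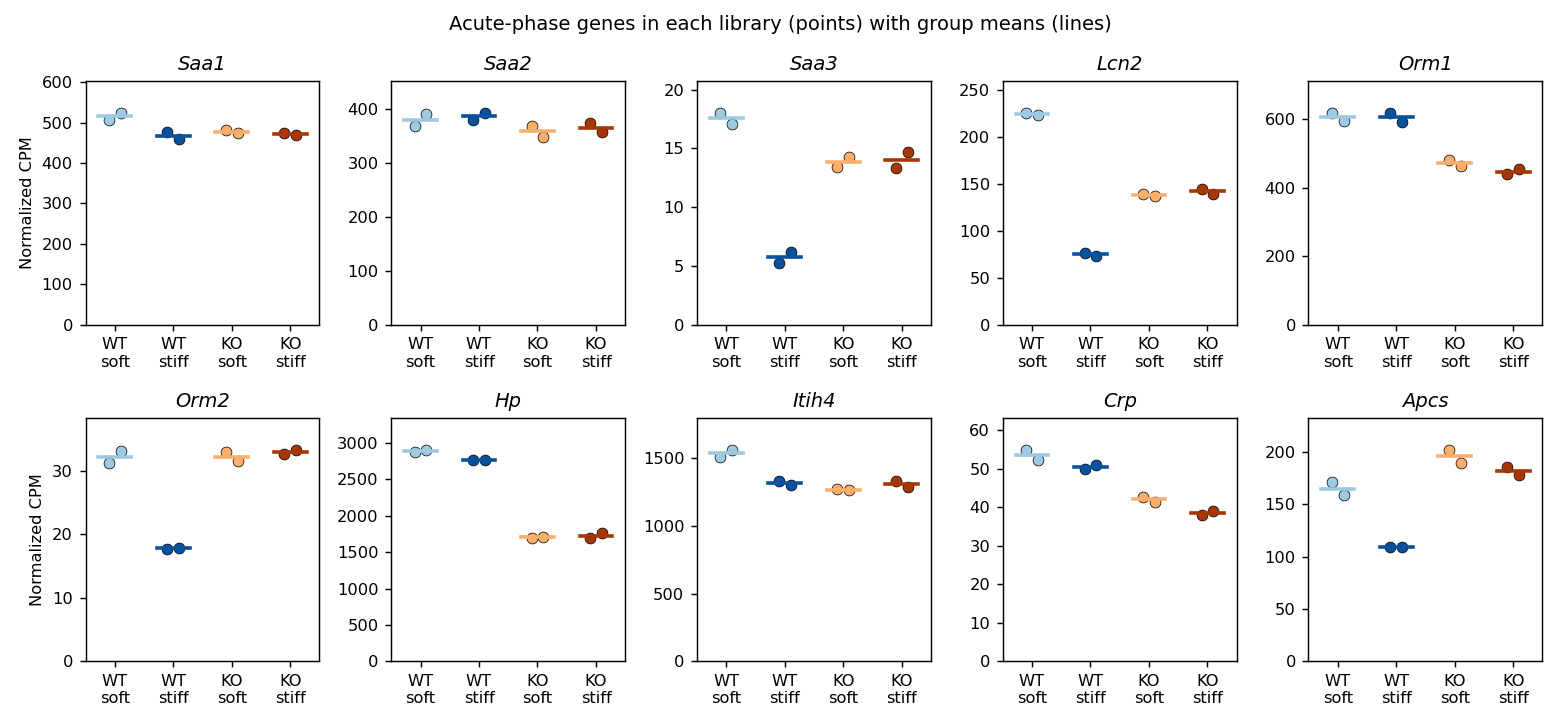
Normalized CPM (y axis, linear, from 0) of the 10 acute-phase genes in each library (points) of the 4 groups (x axis), with group means as lines. Lcn2, Saa3, Orm2 and Apcs have their lowest points in the wild-type stiff group, and both knockout groups of Hp sit at or below 1757 CPM against 2756 CPM or more in wild type.

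On the stiff hydrogel, 4 of the 10 genes fell in wild-type cells and 0 rose, where 9.26% of all tested genes were called lower and 10.0% higher. With the adjusted p alone and no fold minimum, 6 of the 10 were lower, against 41.0% of all genes in either direction. The median log2 fold change of the 10 was -0.18, and that of all tested genes -0.00874. In knockout cells edgeR called 0 of the 10, with 0 at an unadjusted p under 0.05, and DESeq2 also called 0. The log2 fold changes there ran from -0.12 to 0.05 with a median of 0.02. Of all tested genes 0.0210%, which is 3 genes, were called in knockout cells. The difference between the 2 stiffness effects was itself tested as an interaction. It was called positive, meaning a higher stiff-to-soft ratio in knockout than in wild-type cells, for 3 of the 10 genes (Saa3, Lcn2 and Orm2) and negative for 0. The shares of all genes were 8.64% and 8.21%. Without the fold minimum 5 of the 10 passed, against 29.4% of all genes.

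**Figure D2:**
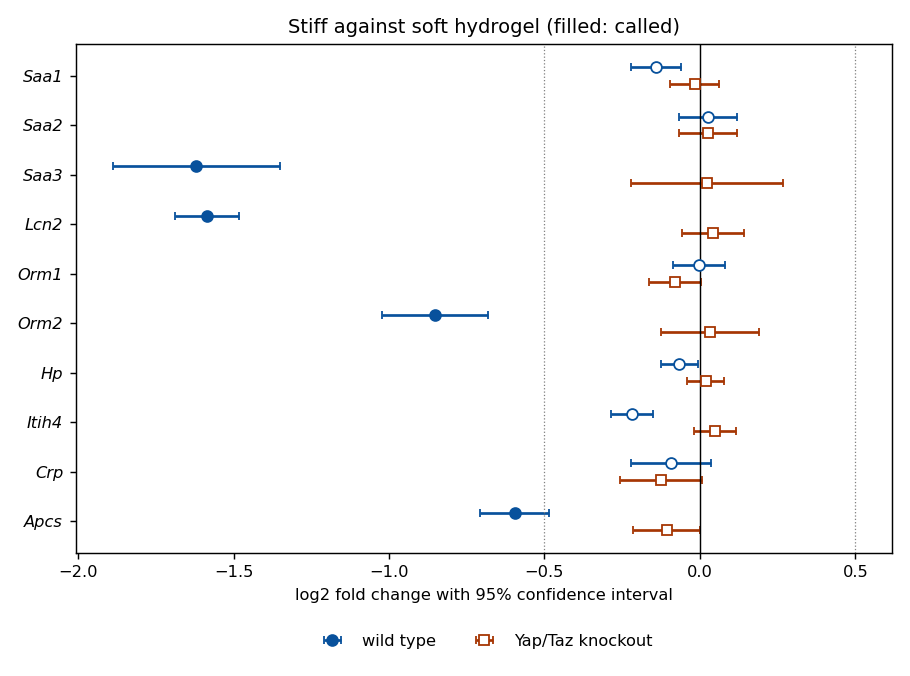
log2 fold change of stiff against soft hydrogel (x axis) with its 95% confidence interval for each of the 10 genes (y axis), in wild-type cells (circles) and Yap/Taz knockout cells (squares). Filled symbols passed the adjusted p and the fold threshold (dotted lines at 0.5 either side of 0): Saa3, Lcn2, Orm2 and Apcs in wild type, and no gene in the knockout.

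Lipocalin 2 (Lcn2) gave the most precise of these differences. In wild type its levels were 226 and 224 CPM on soft and 77.0 and 72.9 CPM on stiff. In the knockout they were 139 and 137 CPM on soft and 145 and 140 CPM on stiff. No ranges overlapped between the 4 groups, and the 2 knockout groups lay close together between the wild-type ones. Lcn2 fell 3.003-fold on the stiff hydrogel in wild-type cells (log2 fold change -1.59 ± 0.049 SE, adjusted p = 2.37e-14, edgeR). In knockout cells the value was 0.04 ± 0.048, with a 95% interval of -0.06 to 0.14. The interaction was 1.63 ± 0.068 (adjusted p = 4.84e-12, edgeR). Knockout cells thus held an intermediate level. On the soft hydrogel they had less Lcn2 than wild type (-0.70 ± 0.047, adjusted p = 3.4e-09, edgeR), and on the stiff hydrogel more (0.93 ± 0.049, adjusted p = 1.96e-11, edgeR). Lcn2 is also an abundant neutrophil protein. The 8 neutrophil markers, S100a8, S100a9 and Ly6g among them, summed to between 0.0508 and 0.742 CPM, and 0 of 8 passed the filter on low counts. Lcn2 was at 72.9 CPM or more in every library. The part of neutrophils in the Lcn2 result was not tested.

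Serum amyloid A3 (Saa3), which macrophages and adipocytes as well as hepatocytes can make, was the least abundant of the 10. It was at 18.02 and 17.1 CPM in wild-type soft libraries and at 5.26 and 6.20 CPM in wild-type stiff ones. The knockout values were 13.4 and 14.2 CPM on soft and 13.3 and 14.7 CPM on stiff. The wild-type stiff libraries stood below all others, and the 2 knockout groups overlapped. Saa3 fell 3.07-fold on the stiff hydrogel in wild-type cells (-1.62 ± 0.127, adjusted p = 8.29e-09, edgeR). The knockout value was 0.02 ± 0.116, and the interaction 1.64 ± 0.173 (adjusted p = 7.76e-07, edgeR). The wide intervals go with its 109 to 468 counts per library. Knockout exceeded wild type on the stiff hydrogel by 1.29 ± 0.130 (adjusted p = 1.41e-07, edgeR). On the soft hydrogel the difference was -0.35 ± 0.113 (adjusted p = 0.0384, edgeR), under the fold threshold. Over the alternatives its adjusted p ranged from 0.0304 to 0.224.

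Markers of other liver cells moved in part with Saa3. For the counts of called markers below, the shares of all tested genes on stiff in wild-type cells were 9.26% lower and 10.0% higher. The 9 Kupffer cell and macrophage markers summed to 90.5 to 95.02 CPM in wild-type soft libraries and 63.0 to 69.7 CPM in wild-type stiff ones, and 5 of 9 were called lower on stiff. In the knockout they summed to 131 to 133 CPM on soft and 134 to 135 CPM on stiff, above both wild-type groups. Saa3 on soft was lower in the knockout than in wild type, by less than the fold threshold. Endothelial markers summed to 51.9 to 57.3, 36.7 to 37.1, 69.0 to 69.4 and 70.1 to 73.9 CPM (soft and stiff in wild type, then soft and stiff in the knockout), with 3 of 6 called lower on stiff in wild-type cells. Stellate cell and fibroblast markers summed to 21.4 to 22.03, 16.97 to 17.6, 27.8 to 30.7 and 28.3 to 31.1 CPM in the same order, and of the 5 tested 2 fell and 1 rose on stiff in wild-type cells. Cholangiocyte markers, mostly Spp1, did not move with Saa3. They summed to 548 to 584, 599 to 602, 344 to 348 and 320 to 333 CPM in the same order. Of the 4 tested, 1 was called higher and 0 lower on stiff in wild-type cells. Of the 3 adipocyte markers, Adipoq was listed at 0 in every library and Fabp4 supplied the sum of 4.67 to 8.50 CPM. Of the 7 hepatocyte markers, 2 were called lower on stiff in wild-type cells, Cyp2e1 (-1.75 ± 0.051) and Hnf4a (-0.98 ± 0.042), and 0 higher, with a median of -0.24. Cyp2e1 and Hnf4a are named here after their values were seen. The summed level of the 7, mostly albumin, was 88230 to 88918 CPM on soft and 91217 to 92711 CPM on stiff. The part of these markers in the Saa3, Lcn2, Orm2 and Apcs results was not tested. In bulk RNA, fewer cells of a type and less RNA per cell cannot be told apart.

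The promoters of the genes that fell are shown with the letters of 4 motifs in capitals, since these members moved together, and that of Saa1 is added as a relative of Saa3 that stayed nearly level. Each is 300 bases from RefSeq, from 250 before to 50 after the annotated start (build GRCm38.p6), read 5′ to 3′ on the gene's strand. The motifs searched on both strands were C/EBP (TTGCNNAA), NF-kappaB (a run of G, free bases and a pair of C), STAT (TTCNNNGAA), AP-1 (TGANTCA) and TEAD (GGAATG), the last without a match. The windows lie at chr2:32387690-32387989 (minus strand) for Lcn2, chr7:46715627-46715926 (minus) for Saa3, chr4:63362199-63362498 (plus) for Orm2, chr1:172895005-172895304 (minus) for Apcs and chr7:46742931-46743230 (minus) for Saa1.
Lcn2: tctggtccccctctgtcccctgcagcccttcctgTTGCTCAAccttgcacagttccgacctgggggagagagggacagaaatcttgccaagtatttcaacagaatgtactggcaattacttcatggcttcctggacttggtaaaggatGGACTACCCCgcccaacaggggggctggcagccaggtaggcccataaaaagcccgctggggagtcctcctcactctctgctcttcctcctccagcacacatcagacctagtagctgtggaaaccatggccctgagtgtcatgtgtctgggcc
Saa3: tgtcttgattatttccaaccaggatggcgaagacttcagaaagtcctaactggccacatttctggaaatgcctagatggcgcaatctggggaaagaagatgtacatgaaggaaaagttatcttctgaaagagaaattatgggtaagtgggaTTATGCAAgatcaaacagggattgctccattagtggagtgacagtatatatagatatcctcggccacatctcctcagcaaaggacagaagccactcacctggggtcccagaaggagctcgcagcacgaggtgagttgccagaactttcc
Orm2: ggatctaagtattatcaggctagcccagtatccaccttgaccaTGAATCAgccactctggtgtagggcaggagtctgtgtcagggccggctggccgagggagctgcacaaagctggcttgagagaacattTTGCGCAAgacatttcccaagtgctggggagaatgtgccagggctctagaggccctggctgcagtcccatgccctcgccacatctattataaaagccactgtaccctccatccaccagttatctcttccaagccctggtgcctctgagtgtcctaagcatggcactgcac
Apcs: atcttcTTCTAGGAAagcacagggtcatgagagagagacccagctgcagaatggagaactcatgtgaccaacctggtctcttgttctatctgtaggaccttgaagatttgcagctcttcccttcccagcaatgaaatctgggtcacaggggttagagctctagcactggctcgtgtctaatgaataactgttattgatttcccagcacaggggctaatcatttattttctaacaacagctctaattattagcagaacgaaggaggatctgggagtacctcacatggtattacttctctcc
Saa1: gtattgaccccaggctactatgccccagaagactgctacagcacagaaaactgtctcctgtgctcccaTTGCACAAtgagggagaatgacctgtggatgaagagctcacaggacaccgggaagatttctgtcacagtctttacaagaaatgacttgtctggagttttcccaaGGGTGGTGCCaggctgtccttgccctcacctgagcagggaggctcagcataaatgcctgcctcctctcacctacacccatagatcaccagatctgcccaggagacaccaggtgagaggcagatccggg

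The same letters occurred in genes that fell and in genes that stayed level. RefSeq windows were matched for 8 of the 10 genes, with none for Hp and Orm1. C/EBP letters occurred in 5 of the 8, namely Saa1, Saa2, Saa3, Orm2 and Lcn2, against 10.8% of all 32851 promoter windows. They started at position -182 in Saa1 and -183 in Saa2, at -99 in Saa3, at -120 in Orm2 and at -216 in Lcn2. NF-kappaB letters, which are short on fixed bases, occurred in 5 of 8 and in 50.8% of all windows. The Saa1 and Saa2 windows are near copies of each other and hold the same C/EBP and NF-kappaB matches. Each count of 5 takes in both of these windows, so its matches are not all separate. STAT letters occurred in Apcs (position -244) and Itih4 (position -51) and in 8.30% of all windows. AP-1 letters occurred in Orm2 (-207) and Crp (-197) and in 7.81% of all. TEAD letters, the site of the DNA-binding partners of YAP and TAZ, occurred in 0 of 8 and in 14.7% of all. A match here is a description of letters, and a window without one says nothing about the factor.

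**Figure D3:**
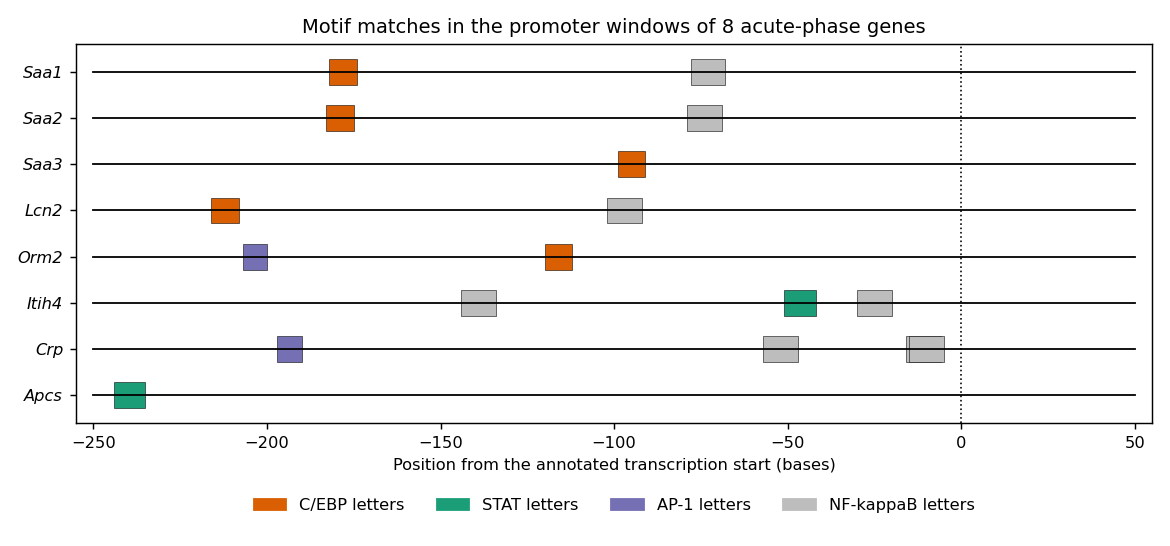
Positions of motif matches (coloured boxes) along the 300-base promoter windows of 8 acute-phase genes (rows), in bases from the annotated start (x axis, dotted line at 0). C/EBP boxes appear in Saa1, Saa2, Saa3, Lcn2 and Orm2, STAT boxes in Itih4 and Apcs, and no TEAD match was found.

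Saa1 and Saa2, the circulating serum amyloid A pair, behaved unlike Saa3. Saa1 was at 507 and 524 CPM in wild-type soft libraries, 476 and 459 CPM in wild-type stiff ones, 483 and 473 CPM in knockout soft ones, and 475 and 470 CPM in knockout stiff ones. The wild-type soft libraries were the highest, and the other 3 groups overlapped their neighbours. The stiffness difference in wild-type cells was -0.14 ± 0.038 (adjusted p = 0.00559, edgeR), within the fold threshold, and in knockout cells -0.02 ± 0.038. Saa2 was at 368 and 391, 380 and 392, 369 and 348, and 372 and 356 CPM in the same order of groups, with overlap along the whole order of means. Its stiffness differences were 0.02 ± 0.044 and 0.03 ± 0.044, and the 95% interval in both genotypes ran from -0.07 to 0.12. The ratio of Saa1 to Saa2 stayed between 1.17 and 1.38. The 2 genes share sequence: 8.43% of the 64-base windows of the Saa1 coding transcript also occur in Saa2 transcripts, and 4.58% the other way, so reads of those stretches cannot be assigned with certainty. Of the Saa3 transcript 2.995% of windows occurred in other genes. With Saa1 and Saa2 summed, the stiffness difference was -0.07 ± 0.035 in wild type and 0.00126 ± 0.035 in the knockout.

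The orosomucoids Orm1 and Orm2, lipocalin-family carriers from nearby genes with Orm3 between them, differed from each other. Orm2 was at 31.2 and 33.0 CPM in wild-type soft libraries and at 17.6 and 17.9 CPM in wild-type stiff ones. In the knockout it was at 33.0 and 31.4 CPM on soft and at 32.6 and 33.3 CPM on stiff. The wild-type stiff libraries stood apart below the other 3 groups, which overlapped. Orm2 fell 1.804-fold on stiff in wild-type cells (-0.85 ± 0.081, adjusted p = 1.06e-07, edgeR). The knockout value was 0.03 ± 0.075, and the interaction was 0.88 ± 0.111 (adjusted p = 6.61e-06, edgeR). Knockout exceeded wild type by 0.89 ± 0.081 on stiff (adjusted p = 3.32e-08, edgeR) and differed by 0.01 ± 0.075 on soft.

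Orm1 had no such stiffness difference. Its levels were 619 and 594 CPM in wild-type soft and 618 and 593 CPM in wild-type stiff libraries, which overlapped, and 481 and 464 CPM in knockout soft and 439 and 455 CPM in knockout stiff libraries. Every knockout library lay below every wild-type library. The stiffness value was -0.00245 ± 0.039 in wild type, where its sign turned with the scaling, and -0.08 ± 0.040 in the knockout. Knockout against wild type gave -0.36 ± 0.039 on soft (adjusted p = 1.99e-06, edgeR) and -0.44 ± 0.040 on stiff (adjusted p = 3.23e-08, edgeR), both short of the fold threshold. The ratio of Orm1 to Orm2 counts was accordingly 17.99 to 19.9 in wild-type soft, 33.1 to 35.04 in wild-type stiff, 14.6 to 14.8 in knockout soft and 13.5 to 13.7 in knockout stiff libraries. Of the 64-base windows 16.7% in Orm1 and 18.1% in Orm2 also occur in another Orm gene, so reads of those stretches cannot be assigned with certainty. With Orm1, Orm2 and Orm3 summed the stiffness difference was -0.04 ± 0.039 in wild type, and Orm1 supplies most of that sum.

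Haptoglobin (Hp), the most abundant of the 10, differed between the libraries of the 2 genotypes. It was at 2879 and 2907 CPM in wild-type soft libraries, 2768 and 2756 CPM in wild-type stiff ones, 1698 and 1704 CPM in knockout soft ones and 1688 and 1757 CPM in knockout stiff ones. The wild-type libraries were all above the knockout libraries, and the 2 knockout groups overlapped. Hp was 1.70-fold lower in the knockout on soft (-0.77 ± 0.028, adjusted p = 1.88e-12, edgeR) and 1.60-fold lower on stiff (-0.68 ± 0.028, adjusted p = 5.34e-13, edgeR). The stiffness differences were -0.07 ± 0.028 in wild type (adjusted p = 0.0705, edgeR) and 0.02 ± 0.028 in the knockout. The summed hepatocyte markers moved the same way, from 88230 to 88918 CPM on soft and 91217 to 92711 CPM on stiff in wild type to 61394 to 61887 CPM and 61277 to 61480 CPM in the knockout. Albumin made up most of that sum. Of the 7 markers, 2 were called lower and 1 higher in the knockout on soft, where 4.65% of all tested genes were lower and 2.02% higher. On stiff 2 were lower and 2 higher, where the shares of all genes were 15.0% and 13.7%. The markers thus did not fall together. The part of this in the Hp result was not tested.

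The pentraxins also parted. Apcs, serum amyloid P, was at 171 and 159 CPM in wild-type soft, 109 and 109 CPM in wild-type stiff, 202 and 189 CPM in knockout soft and 186 and 178 CPM in knockout stiff libraries. The groups did not overlap, and the wild-type stiff group was the lowest. Apcs fell 1.51-fold on stiff in wild-type cells (-0.60 ± 0.053, adjusted p = 4.17e-08, edgeR). The knockout value was -0.11 ± 0.051 (unadjusted p = 0.0515, adjusted p = 0.658, edgeR). The interaction was 0.49 ± 0.073 (adjusted p = 5.34e-05, edgeR), just under the fold threshold, and passed it without wild-type soft replicate 2 (0.53), without knockout soft replicate 1 (0.53) or without knockout stiff replicate 2 (0.51). Knockout exceeded wild type by 0.74 ± 0.053 on stiff (adjusted p = 1.22e-09, edgeR) and by 0.25 ± 0.051 on soft (adjusted p = 0.00187, edgeR), the latter within the fold threshold.

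Crp, which in mice is only a modest acute-phase reactant, was at 54.9 and 52.1 CPM in wild-type soft, 49.8 and 50.8 CPM in wild-type stiff, 42.7 and 41.2 CPM in knockout soft and 38.1 and 39.0 CPM in knockout stiff libraries. Each group lay below the one before. The stiffness differences, -0.09 ± 0.061 and -0.12 ± 0.063, did not pass the test. The genotype differences were -0.35 ± 0.061 on soft (adjusted p = 0.000391, edgeR) and -0.38 ± 0.063 on stiff (adjusted p = 5.25e-05, edgeR), within the fold threshold. The ratio of Crp to Apcs was 0.321 to 0.329 in wild-type soft and 0.456 to 0.464 in wild-type stiff libraries, and 0.205 to 0.219 in all knockout libraries. Itih4 was at 1504 and 1561, 1330 and 1303, 1270 and 1259, and 1329 and 1286 CPM in the same order. The wild-type soft libraries were the highest. The stiffness difference in wild type was -0.22 ± 0.032 (adjusted p = 2.36e-05, edgeR) and in the knockout 0.05 ± 0.032, with an interaction of 0.27 ± 0.046 (adjusted p = 0.000196, edgeR), all within the fold threshold.

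Levels were compared between genes per length only, as wild-type soft means. Hp was the highest and Saa3 the lowest whether the deposited gene length or the longest coding transcript was used, at 1801 or 2151 CPM per kb and at 6.74 or 7.98 CPM per kb. The order between them depended on the length. The deposited length covers all annotated exons, which for Saa1 is 2478 bases against 609 for the coding transcript, for Saa2 2518 against 652 and for Lcn2 2623 against 915. By deposited length Orm1 (783 CPM per kb) and Itih4 (415) followed Hp, ahead of Saa1 (208), Apcs (170), Saa2 (151) and Lcn2 (85.8). By coding transcript Saa1 (847) and Orm1 (783) followed, then Saa2 (582), Itih4 (434), Lcn2 (246) and Apcs (170). Orm2 (41.4 by either) and Crp (15.5 or 31.6) stood just above Saa3 in both.

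Between genotypes, 2 of the 10 genes (Hp and Lcn2) were called lower in the knockout on the soft hydrogel and 0 higher, against 4.65% of all genes lower and 2.02% higher. With no fold minimum 6 were lower and 1 higher, against 18.4% of all genes in either direction, and the median was -0.31. On the stiff hydrogel 4 were called higher (Saa3, Lcn2, Orm2 and Apcs) and 1 lower (Hp), against 13.7% and 15.0% of all genes. With no fold minimum 4 were higher and 3 lower, against 51.1% of all genes in either direction, and the median was 0.00211. The stiff comparison and the stiffness comparison in wild type share the same wild-type stiff libraries, in which those 4 genes were lowest, so the 2 sets of calls are not independent. Markers of other cells were also called in the knockout on stiff, beside the same shares of all genes. Higher were 8 of 9 Kupffer cell and macrophage, 5 of 6 endothelial and 4 of 5 tested stellate cell and fibroblast markers. Lower were 1 stellate cell and fibroblast marker and 2 of 4 tested cholangiocyte markers. The part of these markers in the 4 calls was not tested.

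**Figure D4:**
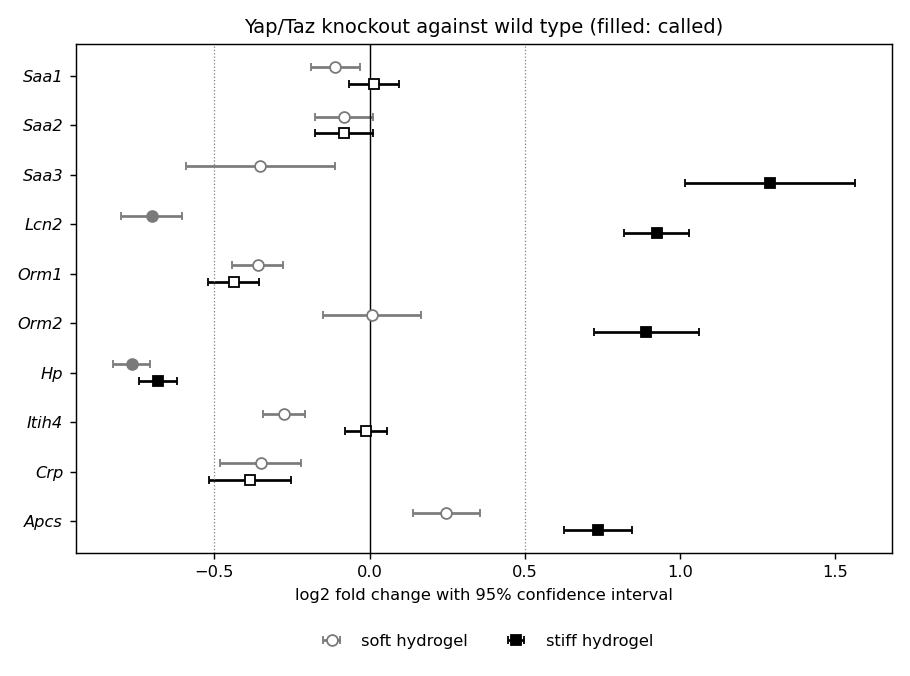
log2 fold change of Yap/Taz knockout against wild type (x axis) with its 95% confidence interval for each of the 10 genes (y axis), on the soft (grey circles) and the stiff hydrogel (black squares). Filled symbols were called: Hp lies below -0.5 on both hydrogels, and Lcn2 is below 0 on soft (-0.70) and above 0 on stiff (0.93).

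Among the receptors and signalling genes of the IL-6 pathway, 14 were tested. None rose and 1, Stat3, fell on stiff in wild-type cells (237 to 162 CPM in the means, -0.55 ± 0.044, adjusted p = 9.38e-09, edgeR). Of all tested genes 10.0% rose and 9.26% fell. Without wild-type soft replicate 2 the count was 1 higher and 3 lower, and without wild-type stiff replicate 1 it was 1 higher and 2 lower. With upper-quartile factors or library size only, 2 were called. The receptor subunits Il6ra and Il6st gave -0.04 and -0.05, and Socs3, a feedback inhibitor induced by STAT3, gave -0.31 (5.64 to 8.35 CPM over all libraries, adjusted p = 0.157, edgeR). Ptpn11, a phosphatase, had the highest value of the list (0.49), under the fold threshold. Il6 itself was at 0.389 CPM or less and was not tested.

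Of 18 tested genes of the IL-1 receptor and NF-kappaB list, 1 rose and 3 fell on stiff in wild-type cells, where 10.0% of all tested genes rose and 9.26% fell. The median was -0.02. Nfkbia, the NF-kappaB inhibitor, rose by 1.30 ± 0.071 (adjusted p = 5.53e-11, edgeR). Il1rn, the antagonist of the IL-1 receptor and an acute-phase gene itself, fell by 1.11 on the log2 scale (adjusted p = 9.59e-10, edgeR). Nfkbiz, the co-activator of Lcn2 in many cells, gave 0.18 (adjusted p = 0.104, edgeR). Of the 9 transcription factors of acute-phase genes, 0 rose and 4 fell, against the same shares of all genes. These were Klf4 (-1.50 ± 0.100) and, named after their values were seen, Creb3l3 (-1.05 ± 0.047), Cebpa (-0.99 ± 0.075) and Hnf4a (-0.98 ± 0.042). The inducible C/EBP factors Cebpb and Cebpd gave -0.22 and 0.22, and the glucocorticoid receptor Nr3c1 gave 0.08, none of which passed the test. The interaction was positive for the same 4 factors, which were called in it at 1.48, 1.04, 1.06 and 0.98.

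Of the other positive acute-phase genes, 10 of 24 tested fell on stiff in wild-type cells and 1 rose, against 9.26% and 10.0% of all tested genes, with a median of -0.48. Named after their values were seen, Steap4 (-1.56), Saa4 (-1.29), Cd14 (-1.19), Orm3 (-0.87), Slc39a14 (-0.70), Serpina3n (-0.60) and the fibrinogen chain Fgb (-0.60) were among those that fell. Mt2 had the lowest value (-2.79 ± 0.932, adjusted p = 0.0231, edgeR), but its wild-type soft libraries stood apart from each other at 0.424 and 5.44 CPM, with the stiff libraries at 0.338 and 0.457 CPM. Of the negative acute-phase genes, whose plasma level drops in inflammation, 3 of 13 tested fell and 1 rose, against the same shares of all genes, with a median of -0.30. Ahsg, fetuin A, fell by 0.76 on the log2 scale (adjusted p = 4.2e-13, edgeR), and Igf1 rose by 1.79 ± 0.046 (adjusted p = 2.2e-15, edgeR). In knockout cells 0 genes of these 5 lists were called in edgeR or DESeq2. At an unadjusted p under 0.05 there were 2 of 14 in the IL-6 list, 3 of 18 in the IL-1 list, 1 of 9 factors, 5 of 24 other positive and 1 of 13 negative genes, beside 7.54% of all tested genes. The lists were chosen with earlier results of these data known, Il1rn stands in the IL-1 and the other positive lists, the negative list shares Alb, Ttr and Apoa1 with the hepatocyte markers, and Hnf4a stands among the factors and the hepatocyte markers.

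**Figure D5:**
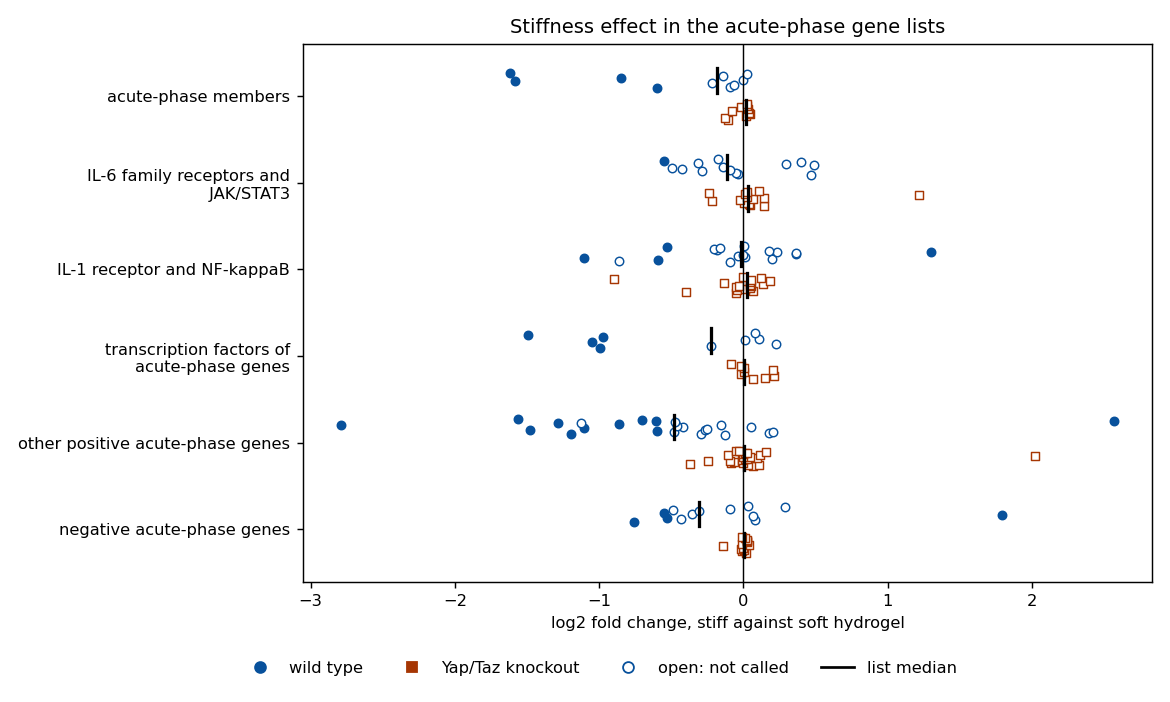
log2 fold change of stiff against soft hydrogel (x axis) for each tested gene of the acute-phase lists (rows), in wild-type cells (circles) and Yap/Taz knockout cells (squares). Filled symbols were called and short vertical lines mark list medians, which lie at -0.18 for the 10 acute-phase genes and -0.48 for the other positive acute-phase genes in wild type.

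Between genotypes the other positive list had 0 genes higher and 10 lower in the knockout on soft, where 2.02% of all tested genes were higher and 4.65% lower. On stiff it had 9 higher and 5 lower, where 13.7% of all genes were higher and 15.0% lower. The factors, beside the same shares, had 1 higher and 0 lower on soft, and 4 higher and 0 lower on stiff. Stat3 was higher in the knockout on stiff (0.53 ± 0.044, adjusted p = 1e-08, edgeR) and gave -0.05 on soft.

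Across the 8 libraries, the 3 genes most like each acute-phase gene in log2 CPM, among 8587 genes at 10 CPM or more on average, were sought as a description. For Lcn2 they were Hc, Il1rn and Cpn2 (Pearson r 0.99 each), and 188 genes exceeded 0.9. For Saa3 they were Acaa1b, Sec16a and A2ml1, for Orm2 Chka, Gm5182 and Itih3, and for Apcs Ivns1abp, Btaf1 and Evi5, with 618, 1259 and 1333 genes over 0.9. For Hp they were Dmgdh, Gpt2 and Emp1, for Orm1 Hrg, Spp1 and Cyp2a12, and for Crp mt-Rnr1, Ifrd1 and Tardbp. For Itih4 they were Slc7a5, Fasn and Serping1, for Saa1 Fos, Chac1 and Phgdh, and for Saa2 Runx1, Srfbp1 and Hnrnpul1. The libraries form 4 groups of 2, and the points of a group share genotype and hydrogel.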

How the data were processed

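RNA-seq counts of 8 libraries from mouse primary hepatocytes were used. Per the study's methods, alignment of the paired-end reads by the authors used HISAT2 2.0.5 and gene counting used featureCounts. The deposited values are raw read counts per gene without normalization, beside gene lengths and positions. The submitters' processing notes also name DESeq2 1.20.0, edgeR 3.22.5 and GATK 4.1.4.1 and the build mm9. The deposited positions differ from those of GRCm38 and their build was not settled, so only chromosomes and the RefSeq promoter windows are printed. The labels describe directional and non-directional libraries without saying which applied here, and the strand setting in counting was not given in the sources used here.

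The main tool was edgeR 4.0.16 with limma 3.58.1 in R 4.3.3, and figures were drawn in Python 3.11.15 with matplotlib 3.10.9. Genes were kept by filterByExpr (14279 genes), scaled by TMM and fitted with glmQLFit over all 8 libraries with 1 term per group. The fit left 4 residual degrees of freedom and a common biological coefficient of variation of 0.0542. The error of each gene was also drawn toward that of all genes, with 13.3 prior degrees of freedom, so the p-values rest largely on this shared estimate. Each comparison used glmQLFTest with Benjamini-Hochberg adjustment. Called genes had an adjusted p under 0.05 and a log2 fold change over 0.5 in size, the thresholds of the study's methods. Errors of log2 fold changes are standard errors. The limit of a count of 0 covers counting error only. Replicates of a group differed beyond sampling noise (chi-square per degree of freedom 2.62 to 5.45 over genes).

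The 10 genes and the lists were chosen with earlier results of these data known. The text names the 10 genes, the highest and lowest gene of each list in the wild-type stiffness comparison, Il6, Il6ra, Il6st, Stat3, Socs3, Cebpb, Cebpd, Nfkbiz, Nr3c1, the label checks Yap1, Wwtr1, Ccn1 and Ccn2, and the 3 genes most like each of the 10. A gene that this rule names is not reported here. Shared sequence was counted in 64-base windows of the longest coding transcript of the GENCODE annotation for GRCm38. Promoters came from RefSeq. Alternatives covered DESeq2 1.42.0, other scalings and filters, fold thresholds, robust empirical Bayes, a replicate block, the 4 libraries compared alone, summed paralogs and each library left out. The steps were tested on simulated data.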

Additional observations from a re-analysis of the deposited data

Results flagged for a closer look

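The stiffness effect differed between knockout and wild-type cells, by a test of the difference itself and beyond the fold threshold, for 3 of the 10 acute-phase genes. All 3 were positive, where 8.64% of all tested genes were called positive and 8.21% negative. Without the fold minimum 5 of the 10 passed, against 29.4% of all genes. The knockout minus wild-type difference in the stiff-to-soft log2 fold change was 1.64 for Saa3, 1.63 for Lcn2 and 0.88 for Orm2. In each case both wild-type stiff libraries lay below both wild-type soft ones, and the stiffness differences in the knockout were 0.02, 0.04 and 0.03 on the log2 scale.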

How the results depend on the processing

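Every call of one of the 10 genes kept its direction under the alternatives run. The counts of called genes moved by over 1.5 times only with the fold threshold. With no minimum fold change 5 genes passed in the interaction and 7 in knockout against wild type on soft. With a minimum of 1 on the log2 scale 2 passed in the wild-type stiffness comparison, 0 in knockout against wild type on soft and 1 on stiff. With library size only, the median of the 10 genes was -0.259 in knockout against wild type on soft and 0.0593 on stiff. With each library left out in turn, the number called stayed at 4 for stiffness in wild type, 0 in the knockout, 2 for genotype on soft and 5 on stiff, and was 3 to 4 for the interaction.

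Signs turned only for differences near 0 that were not called. Orm1 in the wild-type stiffness comparison was 0.00529 with DESeq2, 0.00548 with its size factors in edgeR and 0.00661 with no filter. The Saa2 interaction was -0.0121, -0.0116 and -0.0217 under the same settings and -0.00202 where each library had to hold 10 counts. Itih4 in knockout against wild type on stiff was 0.00763 with upper-quartile factors and 0.0471 with library size only. Leaving out each library in turn, the stiffness difference in wild type ran from -0.0109 to 0.0711 for Saa2 and from -0.0276 to 0.0338 for Orm1, and the Saa2 interaction from -0.0548 to 0.0391. In the knockout it ran from -0.0547 to 0.0869 for Saa3, from -0.0208 to 0.0629 for Saa2, from -0.00496 to 0.0635 for Orm2 and from -0.0188 to 0.0441 for Hp. Knockout against wild type ran from -0.0323 to 0.0493 for Orm2 on soft, and on stiff from -0.0216 to 0.0283 for Saa1 and from -0.0390 to 0.00333 for Itih4. The cause was not tested.

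The labels give replicate numbers without saying that they pair libraries, and deviations of same-numbered libraries correlated between -0.288 and 0.331 across genes, so the numbers were not taken as pairs. With the replicate block the counts of the 10 genes were 4, 0, 3, 2 and 5 for stiffness in wild type, stiffness in knockout, the interaction, and genotype on soft and stiff, the same as without it. Over all genes the block gave 2705 calls against 2754 in the wild-type stiffness comparison. With no filter on low counts, 1 gene of the other positive list was called in the knockout stiffness comparison. With 2 libraries per group, small differences such as those of Saa1 and Crp are bounded only by their intervals.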
